A study of Mus musculus with 12 samples.

Results

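A set of 10 genes of the Toll-like receptor and inflammasome pathways was followed in mouse ventricle: the receptors Tlr2 and Tlr4, the adaptor Myd88, the NF-kB genes Nfkb1 and Nfkbia, and the inflammasome genes Nlrp3, Pycard, Casp1, Casp4 and Gsdmd. They were taken by name from a table of raw counts, and the set was named with earlier results of these data known. All 10 of 10 were listed among 55421 genes, and all 10 passed the filter on low counts that left 17376 genes for testing. Ventricular RNA of wild-type (WT) mice was sequenced in 12 libraries, 3 groups of 4. The Ang II + FI group received angiotensin II (Ang II), a vasoconstrictor peptide under which the heart enlarges, from a minipump under the skin, and Forsythoside I (FI), a plant phenylethanoid glycoside, by intraperitoneal injection. FI was given at 50 mg/kg on alternate days, first on the day before the pump and last on day 14. The Ang II group received Ang II and vehicle, and the Saline group received saline and vehicle. No group received saline with FI. The sources used here do not give strain, sex, age or the Ang II dose, and the labels do not say whether each library is 1 animal, so that p-values measure the spread between these libraries.

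Toll-like receptors are membrane receptors for microbial and damage-associated molecules. On binding, most of them recruit the adaptor Myd88, which starts a kinase cascade that frees NF-kB from its inhibitor IkB alpha, the product of Nfkbia. NF-kB then switches on inflammatory genes, among them Nlrp3. The NLRP3 protein assembles with ASC, the product of Pycard, and with caspase-1 into the inflammasome, which cleaves the interleukin-1 family cytokines Il1b and Il18 and the pore-forming protein gasdermin D (Gsdmd). Caspase-4, called caspase-11 in the mouse, binds bacterial lipopolysaccharide inside cells and cleaves gasdermin D without the inflammasome. In the heart these genes are active in macrophages, fibroblasts, endothelial cells and, at lower levels, cardiomyocytes.

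Promoters of these genes were searched for the NF-kB-like motif GGNNNTTCC on both strands (GGAANNNCC on the other), in windows of 250 bases before to 50 bases after each RefSeq gene start (GRCm38.p6). The motif was present in 6070 of 32851 windows, or 18.5%. Windows were found for 7 of the 10 genes, 9 windows in all, and 7 of these 9 held a match. Of the 9, 2 are overlapping Casp4 windows and 2 are separate Nlrp3 windows, so that these 2 genes count more than once. The promoter set used here held no window for Tlr4, Nfkb1 or Gsdmd. The Tlr2 window, the Nfkbia window and the first Nlrp3 window are shown. They were chosen because Tlr2 is the receptor whose window could be read and the other 2 genes are textbook NF-kB targets. Motif matches are in capitals, and each is only a match of letters.
Tlr2, chr3:83841559-83841858, minus strand: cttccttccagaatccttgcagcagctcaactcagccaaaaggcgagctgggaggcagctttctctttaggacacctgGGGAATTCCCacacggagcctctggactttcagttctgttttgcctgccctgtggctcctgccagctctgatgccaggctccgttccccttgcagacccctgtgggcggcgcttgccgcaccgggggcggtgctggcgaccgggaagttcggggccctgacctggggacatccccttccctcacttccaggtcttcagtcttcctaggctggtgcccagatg
Nfkbia, chr12:55492598-55492897, minus strand: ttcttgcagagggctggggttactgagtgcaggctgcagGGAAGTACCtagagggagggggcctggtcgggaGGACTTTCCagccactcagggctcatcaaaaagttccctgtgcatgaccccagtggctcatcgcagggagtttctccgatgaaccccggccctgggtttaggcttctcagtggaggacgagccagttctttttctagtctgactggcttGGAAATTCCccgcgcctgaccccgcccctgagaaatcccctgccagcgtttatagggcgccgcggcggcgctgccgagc
Nlrp3, chr11:59541319-59541618, plus strand: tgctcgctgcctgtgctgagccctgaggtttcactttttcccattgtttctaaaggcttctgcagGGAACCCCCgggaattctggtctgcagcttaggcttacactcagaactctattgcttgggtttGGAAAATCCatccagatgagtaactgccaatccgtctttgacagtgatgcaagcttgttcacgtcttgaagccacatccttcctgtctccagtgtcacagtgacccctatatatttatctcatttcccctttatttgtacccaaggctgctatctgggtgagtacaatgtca
The Tlr2 capitals hold 2 overlapping matches that begin 172 and 171 bases before the gene start. In Nfkbia the matches begin 211, 178 and 29 bases before it, and the last one reads as the motif on both strands. In the Nlrp3 window shown they begin 185 and 122 bases before its start. The second Nlrp3 window (chr11:59542436-59542735), not shown, held a match 94 bases before its own start. The Pycard and Casp1 windows held no match.

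The libraries held 68874852 to 80624227 counts each, and 29.1% to 38.8% of these were on mitochondrial genes. Levels are given as CPM (the count as a share of the library total, scaled up), and 3 counts correspond to 0.0372 to 0.0436 CPM. One library stood apart. Ang II + FI 3 carried 25170 CPM on 16 hepatocyte markers, against 5.23 to 7.12 CPM in the other Ang II + FI libraries, up to 60.8 CPM in the Ang II libraries (in Ang II 3) and 3.16 to 8.92 CPM in the Saline libraries. It also had the lowest mitochondrial share. Comparisons that involve the Ang II + FI group are therefore given with this library and without it. The 8 cardiomyocyte markers fit the ventricular label and summed to between 28050 and 40050 CPM in the 12 libraries. In tissue RNA, more cells of a type and more RNA per cell cannot be told apart.

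With Ang II, 1 of the 10 genes passed the test against Saline, where 2.23% of all tested genes did. Tlr4 rose 1.56-fold over Saline, Tlr2 was about as much higher without passing, and the adaptor, the NF-kB genes and the inflammasome genes did not pass. With FI added to Ang II, none of the 10 genes passed the edgeR test against Ang II alone, and neither did any of the 17376 genes tested (0.0%). Tlr4 stayed above every Saline value. Nlrp3, the least abundant of the 10, had the largest but also the least precise difference between Ang II + FI and Ang II.

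Tlr4 encodes the receptor for lipopolysaccharide (chromosome 4, 66827584 to 66930284, GRCm38). It had 16.21, 12.31, 14.15 and 12.93 CPM in the Ang II + FI libraries 1 to 4, 13.72, 14.58, 17.39 and 14.2 CPM in the Ang II libraries, and 10.3, 9.64, 10.77 and 7.43 CPM in the Saline libraries. Every Ang II value and every Ang II + FI value lay above every Saline value, while the values of the 2 Ang II-infused groups overlapped. The log2 fold change of Ang II over Saline was 0.64 ± 0.15 (SE, 95% interval 0.32 to 0.96), with an adjusted p of 0.0467 by edgeR's quasi-likelihood test, Benjamini-Hochberg adjusted over all genes at a threshold of 0.05. That of Ang II + FI over Ang II was -0.05 ± 0.15 (interval -0.37 to 0.27, edgeR adjusted p = 0.944), and -0.03 ± 0.16 without Ang II + FI 3. Ang II + FI over Saline came to 0.59 ± 0.15 (interval 0.27 to 0.91), which did not pass (edgeR adjusted p = 0.0807), and without Ang II + FI 3 to 0.61 ± 0.16 (edgeR adjusted p = 0.0887). DESeq2 called Tlr4 both for Ang II over Saline (adjusted p = 0.0046) and for Ang II + FI over Saline (adjusted p = 0.0127).

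The Tlr4 call between Ang II and Saline sat close to the threshold. It was lost in 10 of 12 fits that left out 1 library in turn, that is, without Ang II + FI 2 or 4, or without any single Ang II or Saline library. The fold change ranged from 0.52 (without Ang II 3) to 0.70 (without Saline 1) over these fits, and the edgeR adjusted p reached 0.132.

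Tlr2 encodes the receptor for bacterial lipoproteins (chromosome 3, 83836272 to 83841767). It had 4.10, 3.90, 3.50 and 4.01 CPM in the Ang II + FI libraries, 5.83, 5.08, 4.87 and 4.03 CPM in the Ang II libraries, and 3.54, 2.92, 3.79 and 2.48 CPM in the Saline libraries. The Ang II and Saline values did not overlap, and the Ang II + FI values lay among the lower Ang II and the higher Saline values. Ang II over Saline gave a log2 fold change of 0.61 ± 0.17 (interval 0.25 to 0.98), with an edgeR adjusted p of 0.0826. DESeq2 called it (adjusted p = 0.0202). Ang II + FI was lower than Ang II by a log2 difference that did not pass, -0.28 ± 0.17 (edgeR adjusted p = 0.609), and without Ang II + FI 3 the value was -0.21 ± 0.17. The Tlr2 difference between Ang II + FI and Saline was 0.34 ± 0.17 (edgeR adjusted p = 0.334). Without Ang II + FI 3, whose 3.50 CPM was the lowest of its group, it was 0.41 ± 0.17 (edgeR adjusted p = 0.276) and the groups no longer overlapped.

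Summed markers of macrophages, of fibroblasts, and of pericytes and smooth muscle cells were also higher with Ang II than with Saline. The 13 macrophage markers summed to 519.5 to 611.8 CPM in Ang II + FI (559.1 to 611.8 CPM without library 3), 582.6 to 670.8 CPM in Ang II and 365.4 to 488.4 CPM in Saline. Of these, 5 of 13 (C1qa, C1qb, C1qc, Cd68 and Mrc1) rose with Ang II over Saline, 3 of 13 (C1qa, C1qb and C1qc) rose with Ang II + FI over Saline, and 0 of 13 passed between Ang II + FI and Ang II by edgeR. The same 3 were called without Ang II + FI 3, and no marker of the 13 was at 0 throughout a group. The 8 fibroblast markers summed to 957.8 to 1059 CPM in Ang II + FI, 1114 to 1273 CPM in Ang II and 795.4 to 1024 CPM in Saline, and 4 of 8 (Col1a1, Col1a2, Lum and Pi16) rose with Ang II over Saline. With Ang II + FI over Saline 2 of 8 (Col1a1 and Pi16) rose, with or without Ang II + FI 3. All fibroblast sums in Ang II + FI lay below all those in Ang II and overlapped those in Saline. Per 100 CPM of the macrophage sum, Tlr4 stood at 2.11 to 2.81 in Ang II + FI, 2.12 to 2.98 in Ang II and 2.03 to 2.71 in Saline. The same ratio for Tlr2 was 0.656 to 0.71 in Ang II + FI, 0.601 to 0.956 in Ang II and 0.638 to 0.929 in Saline. Both ratios overlapped between all 3 groups, as did those of Nlrp3, Pycard, Casp1, Casp4 and Gsdmd. The Myd88 ratio was 1.55 to 2.21 in Ang II and 2.22 to 2.77 in Saline, without overlap. The Nfkbia ratio did not overlap there either, at 3.64 to 5.72 in Ang II and 5.8 to 9.19 in Saline. That of Nfkb1 did not overlap between Ang II + FI (3.69 to 6.21) and Saline (6.37 to 8.29). Endothelial markers (8 genes) summed to 526.1 to 634.9 CPM in Ang II + FI, 677.6 to 943.5 CPM in Ang II and 477.8 to 787.3 CPM in Saline, with 0 of 8 called in any comparison by edgeR. Neutrophil markers were scarce, at 2.21 to 3.25 CPM in Ang II + FI, 2.77 to 4.73 CPM in Ang II and 3.78 to 5.61 CPM in Saline, and the defining neutrophil gene Ly6g was at 0 in all libraries. Of the other markers, 0 of 8 cardiomyocyte, 0 of 8 T and natural killer cell and 0 of 5 B cell genes passed for Ang II over Saline by edgeR. Pericyte and smooth muscle markers (8 genes) summed to 2063 to 2346 CPM in Ang II + FI (2214 to 2346 CPM without library 3), 2245 to 2398 CPM in Ang II and 1893 to 2155 CPM in Saline. All these Ang II sums lay above all the Saline sums, and 1 of the 8 genes (Cnn1) rose with Ang II over Saline. The part of these cell types in the receptor values was not tested, and no ratio to a marker sum other than that of macrophages was taken.

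**Figure D1:**
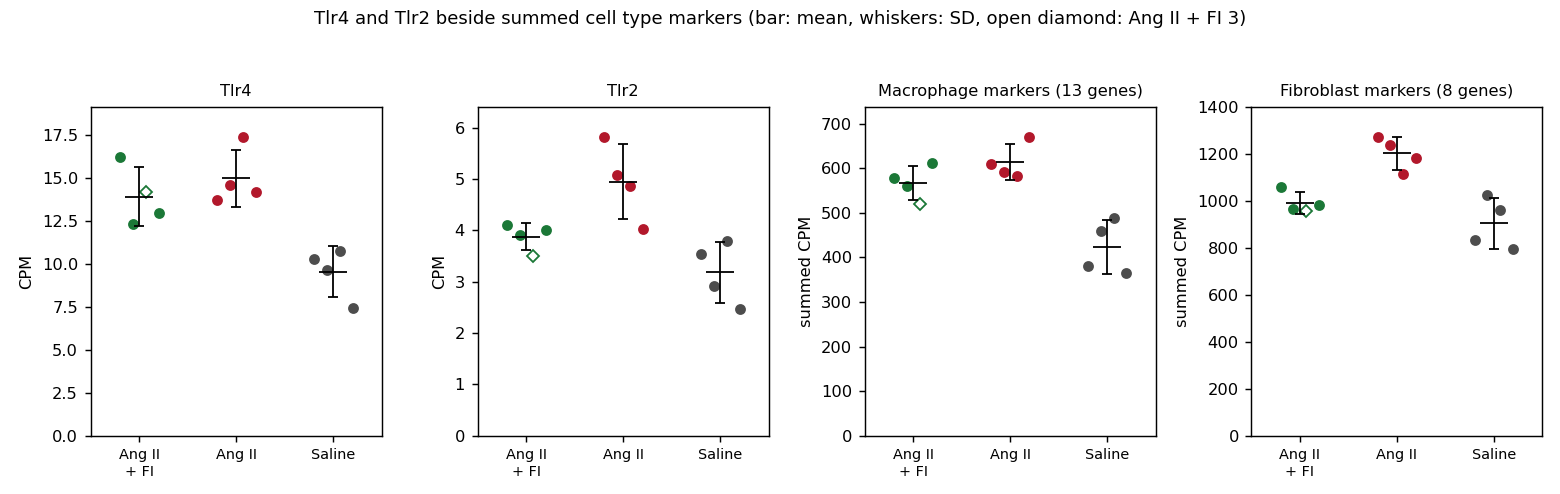
CPM of Tlr4 and Tlr2 and summed CPM of 13 macrophage and 8 fibroblast markers in each library of the Ang II + FI, Ang II and Saline groups (points), with mean and SD (n = 4 each) and Ang II + FI 3 as an open diamond. Tlr4 lies above all Saline values in both Ang II-infused groups, and the macrophage sums do the same, at 519.5 CPM or more in those groups and at most 488.4 CPM in Saline. Tlr2 and the fibroblast sums lie above all Saline values in Ang II and overlap them in Ang II + FI.

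Myd88, the adaptor shared by most Toll-like receptors (chromosome 9, 119335934 to 119341411), had the smallest standard errors of the 10. It averaged 10.64 ± 0.942 CPM in Ang II + FI, 11.17 ± 1.54 CPM in Ang II and 10.32 ± 0.523 CPM in Saline (SD, n = 4 each), and the 3 ranges overlapped. Its log2 fold change was -0.00 ± 0.10 for Ang II + FI over Ang II, with an interval of -0.22 to 0.21, and -0.02 ± 0.11 without library 3. For Ang II over Saline it was 0.09 ± 0.10, with an interval of -0.12 to 0.31. Exons of Myd88 overlap Acaa1a on the other strand, and the sources used here do not give the strand setting of the counting, so that its counts are uncertain.

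Nfkb1 encodes the p105 precursor of the p50 subunit of NF-kB (chromosome 3, 135584655 to 135691547). It had 27.83, 26.01, 32.25 and 22.55 CPM in the Ang II + FI libraries, 38.9, 34.32, 28.01 and 28.3 CPM in the Ang II libraries, and 31.56, 31.17, 31.1 and 26.13 CPM in the Saline libraries. The highest Ang II + FI value was that of library 3, and without it every Ang II + FI value lay below every Ang II value. Between Ang II + FI and Ang II the log2 fold change was -0.19 ± 0.11 with all libraries (edgeR adjusted p = 0.613) and -0.24 ± 0.12 without library 3 (edgeR adjusted p = 0.650), so that neither passed. Ang II over Saline gave 0.08 ± 0.11 (edgeR adjusted p = 0.794).

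Nfkbia encodes IkB alpha (chromosome 12, 55489410 to 55492647) and is itself induced by NF-kB, which is why its promoter was shown above. It had 25.65, 21.45, 35.92 and 20.19 CPM in the Ang II + FI libraries, 34.81, 26.89, 21.2 and 35.08 CPM in the Ang II libraries, and 22.14, 26.63, 31.93 and 33.6 CPM in the Saline libraries. With all libraries the 3 groups spanned a similar range. Ang II + FI 3 was the highest of the 12, and the other Ang II + FI libraries had 20.19 to 25.65 CPM. Between Ang II + FI and Ang II, Nfkbia differed by a log2 fold change of -0.13 ± 0.18, and without library 3 by -0.29 ± 0.17 (edgeR adjusted p = 0.677). Ang II over Saline gave 0.03 ± 0.18, with an interval of -0.37 to 0.42.

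Among the inflammasome genes, Nlrp3, the sensor (chromosome 11, 59541568 to 59566956), was scarce. It had 14, 24, 4 and 42 counts (0.20, 0.34, 0.055 and 0.57 CPM) in the Ang II + FI libraries, 63, 82, 44 and 20 counts (0.91, 1.19, 0.62 and 0.25 CPM) in the Ang II libraries, and 58, 38, 28 and 16 counts (0.83, 0.55, 0.40 and 0.23 CPM) in the Saline libraries. The groups overlapped, and the lowest of the 12 values was that of Ang II + FI 3. Its coefficient of variation was 75.4% in Ang II + FI, 54.3% in Ang II and 51.0% in Saline, against medians over all tested genes of 19.2%, 16.2% and 17.1% in the same groups. Ang II + FI over Ang II gave a log2 fold change of -1.24 ± 0.66 (interval -2.68 to 0.20, edgeR adjusted p = 0.560), and without library 3 it was -0.88 ± 0.59 (interval -2.17 to 0.40, edgeR adjusted p = 0.728). Ang II over Saline gave 0.52 ± 0.65 (interval -0.89 to 1.93). In all 3 comparisons the Nlrp3 interval was the widest of the 10.

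Pycard encodes ASC, the adaptor that links NLRP3 to caspase-1 (chromosome 7, 127989708 to 127993867). It had 9.43, 8.06, 6.67 and 9.92 CPM in the Ang II + FI libraries, 10.17, 11.85, 10.55 and 10.47 CPM in the Ang II libraries, and 5.62, 7.59, 7.17 and 11.19 CPM in the Saline libraries. Every Ang II + FI value lay below every Ang II value, with 9.92 CPM as the highest and 10.17 CPM as the nearest Ang II value, whereas Saline overlapped both groups. The log2 fold change of Ang II + FI over Ang II was -0.26 ± 0.20 (edgeR adjusted p = 0.683), or -0.14 ± 0.18 without library 3. Ang II over Saline gave 0.43 ± 0.20 (interval 0.01 to 0.86, edgeR adjusted p = 0.288). Pycard shares exon sequence with the model Gm45205 on the opposite strand, so that its counts carry the same doubt as those of Myd88.

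Casp1, the protease of the inflammasome (chromosome 9, 5298517 to 5307265), averaged 4.08 ± 1.45 CPM in Ang II + FI, 3.67 ± 1.18 CPM in Ang II and 3.63 ± 0.565 CPM in Saline. The Ang II + FI libraries ran from 2.26 to 5.82 CPM, a range that held all Ang II and all Saline values. Its log2 fold change was 0.23 ± 0.28 for Ang II + FI over Ang II (0.26 ± 0.30 without library 3) and -0.02 ± 0.28 for Ang II over Saline. Casp4, its neighbour on the same chromosome (5308828 to 5336783), averaged 3.52 ± 0.299 CPM in Ang II + FI, 3.48 ± 0.55 CPM in Ang II and 2.95 ± 0.31 CPM in Saline. Casp4 stood at 0.08 ± 0.15 for Ang II + FI over Ang II, at 0.30 ± 0.15 for Ang II + FI over Saline (edgeR adjusted p = 0.321, and 0.29 ± 0.16 without library 3) and at 0.22 ± 0.15 for Ang II over Saline, without passing in any.

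Gsdmd, the pore-forming end point of the pathway (chromosome 15, 75862327 to 75867408), had 10.38, 7.08, 14.76 and 7.20 CPM in the Ang II + FI libraries, 10.8, 11.44, 8.84 and 8.55 CPM in the Ang II libraries, and 7.10, 11.83, 8.99 and 6.46 CPM in the Saline libraries. Ang II + FI 3 was the highest of the 12. The log2 fold change of Ang II + FI over Ang II was 0.05 ± 0.23, and without library 3 it was -0.17 ± 0.20 (edgeR adjusted p = 0.863). The sign thus turned without that library, and it also turned without Ang II 4 (-0.025).

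**Figure D2:**
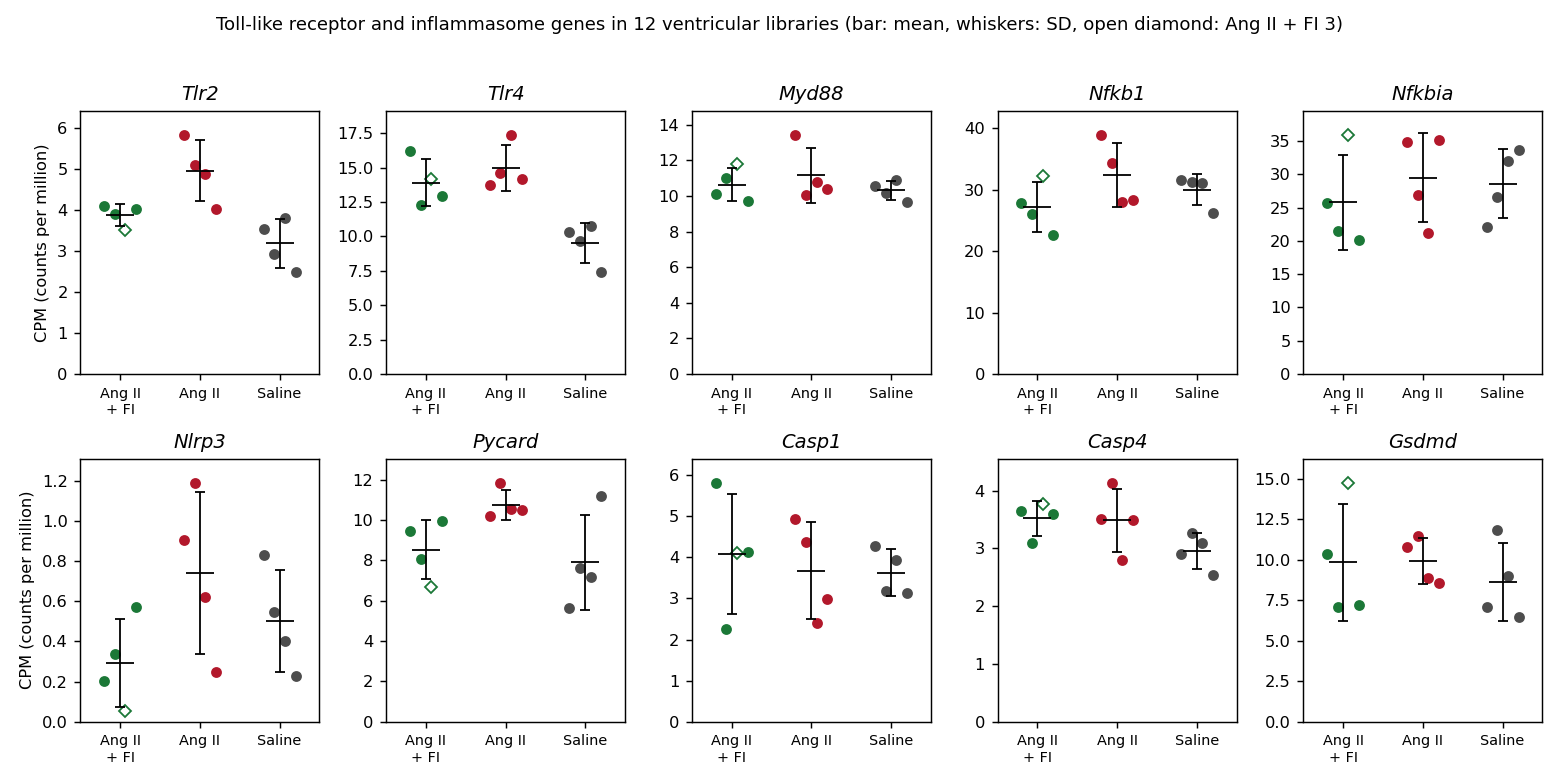
CPM of the 10 genes in each library of the Ang II + FI, Ang II and Saline groups (points), with mean and SD (n = 4 each) and Ang II + FI 3 as an open diamond. Tlr4 and Tlr2 lie higher in all 4 Ang II libraries than in all 4 Saline libraries, whereas the other 8 genes overlap between these groups.

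Over the 10 genes, 1 was called higher and 0 lower for Ang II over Saline, where edgeR called 2.23% of all tested genes (388 of 17376). Of the 10, 3 had an unadjusted edgeR p under 0.05, against 16.8% of all tested genes. In all, 9 of 10 log2 fold changes were above 0, against 50.6% of all tested genes. Their median was 0.20, against 0.00465 over all tested genes. For 2 of 10 genes, both receptors, the groups did not overlap, against 12.3% of all tested genes. DESeq2 called 2 of the 10, where it called 7.0% of 15348 genes.

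For Ang II + FI over Ang II, edgeR called 0 of the 10 genes and 0.0% of all tested genes, or 0.00565% (1 of 17702) without Ang II + FI 3. An unadjusted edgeR p under 0.05 was found for 9.95% of all tested genes. DESeq2 called 45 genes in all, and their share of the genes it tested was not counted. None of the 10 had an unadjusted edgeR p under 0.05, and DESeq2 and limma-voom also called 0 of them. In this comparison 3 of 10 fold changes were above 0, against 53.1% of all tested genes. The median was -0.0885 against 0.0176 over all tested genes, and without Ang II + FI 3 the medians were -0.155 and -0.00274. For 1 of 10 genes (Pycard) the groups did not overlap, against 5.98% of all tested genes, and without Ang II + FI 3 there were 2 (Pycard and Nfkb1), against 11.2%. For Ang II + FI over Saline, edgeR called 0 of 10 genes, where it called 0.978% of all tested genes (1.24% without Ang II + FI 3). An unadjusted edgeR p under 0.05 was found for 1 of the 10, against 17.3% of all tested genes. DESeq2 called 1 of the 10 (Tlr4), where it called 5.52% of 15012 genes. For 1 gene (Tlr4) the groups did not overlap, against 9.58%, and without Ang II + FI 3 there were 2 (Tlr4 and Tlr2), against 15.7%. The comparisons share libraries and are not independent of one another.

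**Figure D3:**
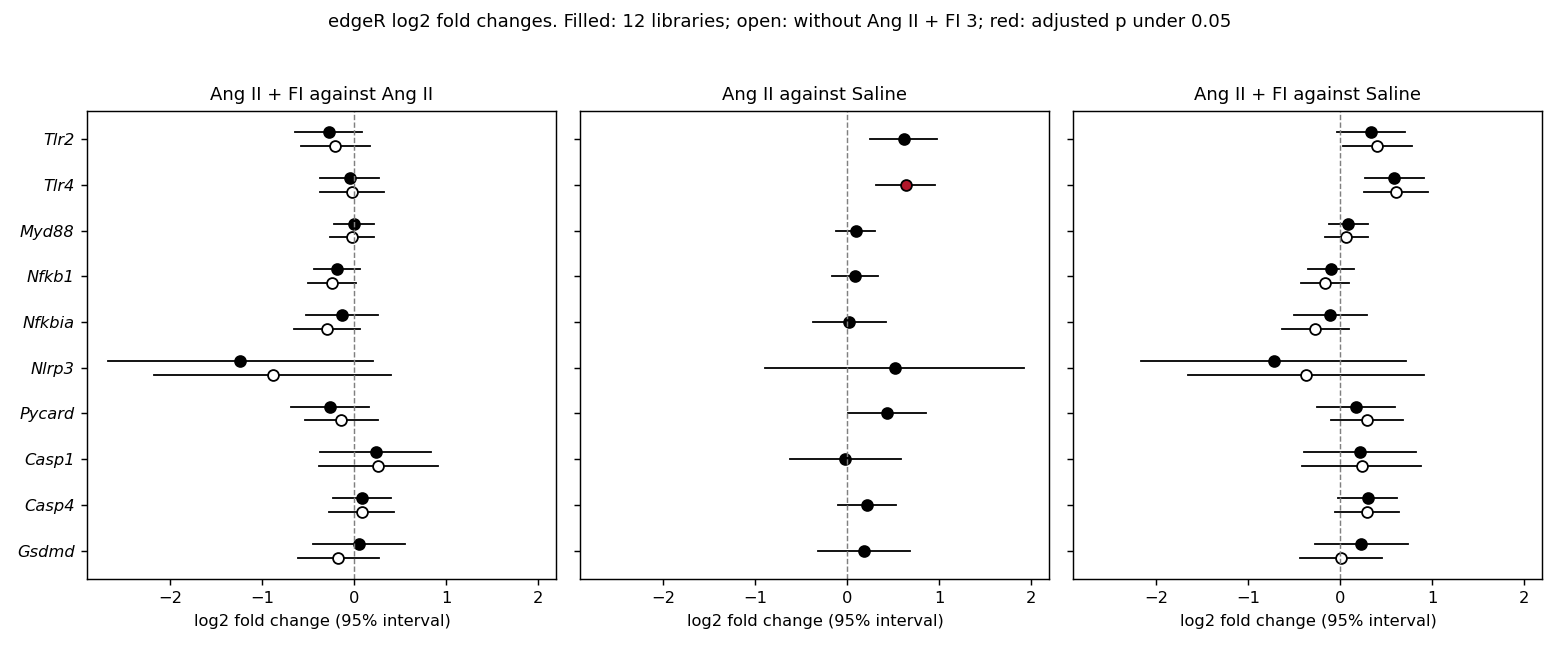
Log2 fold change and 95% interval (edgeR) of the 10 genes for Ang II + FI against Ang II, Ang II against Saline and Ang II + FI against Saline, with 12 libraries (filled) and without Ang II + FI 3 (open). Open points are drawn for the comparisons that involve Ang II + FI. Among the points drawn, Tlr4 for Ang II over Saline (0.64) has an adjusted p under 0.05 (red), and it was called without Ang II + FI 3 as well (edgeR adjusted p = 0.0374). The Nlrp3 intervals are the widest.

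The wider pathways were read from 7 lists, of which 109 genes were tested. For Ang II over Saline, 6 of 109 rose and 0 fell, where 2.23% of all tested genes were called, and the median log2 fold change was 0.156. When Ang II + FI was set against Saline, 2 of 109 rose and 0 fell, where 0.978% of all tested genes were called. The median there was 0.182, against 0.0236 over all tested genes, with 75 of 109 above 0, against 53.4% of all tested genes. It was 0.0996 without Ang II + FI 3, against -0.00806. In that fit 65 of 111 were above 0, against 48.9% of all tested genes, and again 2 rose (1.24% of all tested genes were called). Between Ang II + FI and Ang II, edgeR, DESeq2 and limma-voom each called 0 of 109. The median was -0.0216, and 50 of 109 were above 0, against 53.1% of all tested genes. With Ang II + FI 3 left out edgeR called 0 of 111. The median was then -0.112, and 42 of 111 were above 0, against 49.5% of all tested genes. The 6 genes that rose with Ang II came from 6 of the 7 lists, and none came from the list of adaptors and kinases.

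Tlr13, a receptor for bacterial ribosomal RNA in the mouse (chromosome X, 106143204 to 106160493), was the Toll-like receptor outside the 10 genes that rose with Ang II, 1 of 9 tested. It had 2.71, 1.94, 2.07 and 1.69 CPM in the Ang II + FI libraries, 2.60, 5.11, 3.02 and 4.14 CPM in the Ang II libraries, and 1.76, 1.51, 1.46 and 2.02 CPM in the Saline libraries. All Ang II values lay above all Saline values, and all but 1 of the Ang II + FI values lay below all Ang II values. Its log2 fold change was 1.12 ± 0.24 for Ang II over Saline (edgeR adjusted p = 0.0362) and -0.76 ± 0.24 for Ang II + FI over Ang II (edgeR adjusted p = 0.411), or -0.72 ± 0.26 without Ang II + FI 3. Unc93b1, the chaperone that carries nucleic acid-sensing Toll-like receptors to endosomes (chromosome 19, 3935186 to 3949340), rose with Ang II over Saline by 0.54 ± 0.12 (edgeR adjusted p = 0.0445), with 21.49 ± 2.37 CPM in Ang II + FI, 24.4 ± 1.77 CPM in Ang II and 16.6 ± 2.92 CPM in Saline. It was 1 of 15 in the list of co-receptors and regulators.

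The Tlr4 co-receptors did not pass for Ang II over Saline. Cd14 averaged 6.15 ± 1.32 CPM in Ang II + FI, 7.57 ± 1.02 CPM in Ang II and 4.60 ± 1.38 CPM in Saline, and its Ang II values lay above all Saline values (log2 fold change 0.70 ± 0.23, edgeR adjusted p = 0.142). Ly96, which encodes the MD-2 subunit that binds lipopolysaccharide, was near 1 CPM, with 0.982 CPM in Ang II + FI, 1.08 CPM in Ang II and 0.530 CPM in Saline on average. The Ly96 value of Ang II + FI 3, 1.77 CPM, was the highest of the 12, against 0.495 to 0.846 CPM in the other Ang II + FI libraries. The Ly96 log2 fold change of Ang II + FI over Ang II was -0.10 ± 0.53 with this library and -0.50 ± 0.54 without it, and neither passed. Cd14, Ly96, Il1b and Il18 lie outside the rule for naming genes and were chosen after their values were seen.

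Otulin, an enzyme that trims linear ubiquitin chains and so brakes NF-kB signalling (chromosome 15, 27542635 to 27630693), was 1 of 18 in its list to rise, and did so in both comparisons with Saline. It had 34.01, 29.38, 33.36 and 31.18 CPM in the Ang II + FI libraries, 27.45, 25.05, 32.03 and 22.13 CPM in the Ang II libraries, and 16.23, 13.99, 19.41 and 17.43 CPM in the Saline libraries. Both Ang II-infused groups lay above all Saline values. Otulin had a log2 fold change of 0.98 ± 0.13 for Ang II + FI over Saline (edgeR adjusted p = 0.00613) and 0.66 ± 0.13 for Ang II over Saline (edgeR adjusted p = 0.0267). Without Ang II + FI 3 the Ang II + FI group differed from Saline by 0.99 ± 0.14 (edgeR adjusted p = 0.00769). Between Ang II + FI and Ang II the difference of 0.32 ± 0.13 did not pass (edgeR adjusted p = 0.456, and 0.33 ± 0.14 without library 3).

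Ninj1, whose product ruptures the plasma membrane at the end of pyroptosis (chromosome 13, 49187485 to 49196244), was 1 of 14 tested substrates, inhibitors and executioners to rise, again in both comparisons with Saline. It had 36.44, 38.57, 49.91 and 23.22 CPM in the Ang II + FI libraries, 30.74, 35.7, 36.52 and 26.42 CPM in the Ang II libraries, and 13.84, 17.8, 18.57 and 18.02 CPM in the Saline libraries. The lowest value of the Ang II-infused groups lay above the highest Saline value. Ninj1 had a log2 fold change of 1.16 ± 0.19 for Ang II + FI over Saline (edgeR adjusted p = 0.0175) and 1.02 ± 0.17 without Ang II + FI 3 (edgeR adjusted p = 0.0179). For Ang II over Saline it was 0.91 ± 0.18 (edgeR adjusted p = 0.0285). Ninj1 differed between Ang II + FI and Ang II by 0.25 ± 0.18 (edgeR adjusted p = 0.680), or 0.11 ± 0.17 without library 3, where its value was the highest of the 12.

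Panx1, a membrane channel that releases ATP (chromosome 9, 15002128 to 15045478), was 1 of 14 tested sensors and assembly partners to rise with Ang II. It had 2.01, 1.87, 2.31 and 2.27 CPM in the Ang II + FI libraries, 2.55, 4.47, 3.33 and 3.20 CPM in the Ang II libraries, and 0.573, 1.51, 1.804 and 1.12 CPM in the Saline libraries. No 2 of the 3 groups overlapped, with Ang II + FI between the other two. Panx1 had a log2 fold change of 1.43 ± 0.29 for Ang II over Saline (edgeR adjusted p = 0.0293). It was -0.62 ± 0.29 for Ang II + FI over Ang II (edgeR adjusted p = 0.503) and -0.63 ± 0.31 without Ang II + FI 3, and neither passed.

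Ptgs2, which encodes the prostaglandin-forming enzyme cyclooxygenase-2 (chromosome 1, 150100031 to 150108227), was 1 of 19 tested NF-kB targets to rise. It averaged 1.38 ± 0.349 CPM in Ang II + FI, 2.28 ± 0.609 CPM in Ang II and 0.784 ± 0.268 CPM in Saline. Its log2 fold change was 1.53 ± 0.30 for Ang II over Saline (edgeR adjusted p = 0.0267) and -0.66 ± 0.30 for Ang II + FI over Ang II (edgeR adjusted p = 0.498), or -0.53 ± 0.31 without Ang II + FI 3.

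These 6 calls between Ang II and Saline depended on single libraries. Each of the 6 was lost without Ang II 2 and without Ang II 3, and each was lost without Saline 4. Leaving out Ang II 4 ended all but the Otulin call, Saline 1 all but the Panx1 call, Saline 2 all but the Ptgs2 call, and Saline 3 those of Ninj1, Tlr13 and Unc93b1. The Unc93b1 call was also lost without Ang II 1 or Ang II + FI 4. The fold changes kept their sign throughout, with a lowest log2 value of 1.21 for Panx1, 1.37 for Ptgs2, 0.94 for Tlr13, 0.82 for Ninj1, 0.52 for Otulin and 0.42 for Unc93b1. Between Ang II + FI and Saline, the Otulin call held in 12 of 12 such fits (0.90 to 1.04). The Ninj1 call there held in 8 of 12 and was lost without Ang II + FI 1 or Saline 1, 2 or 4, with a log2 fold change of 1.02 to 1.32 over the 12 fits.

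**Figure D4:**
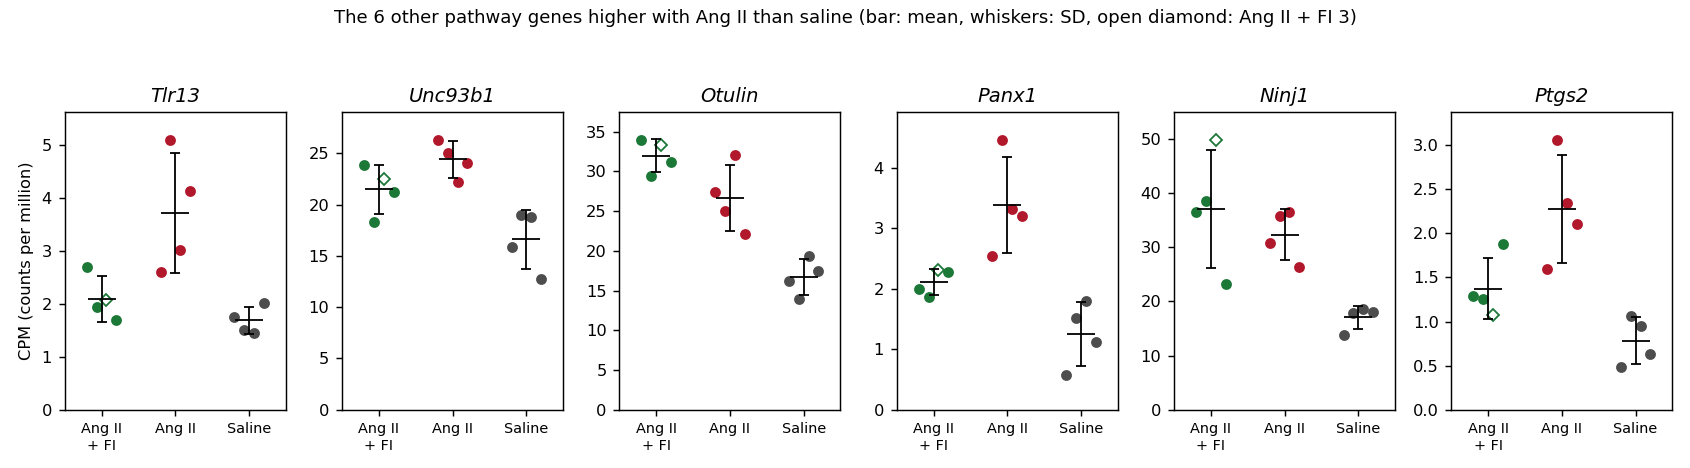
CPM of the 6 other pathway genes that rose with Ang II over Saline, in each library of the Ang II + FI, Ang II and Saline groups (points), with mean and SD (n = 4 each) and Ang II + FI 3 as an open diamond. For each gene every Ang II value lies above every Saline value. In Ang II + FI, the values of Otulin, Ninj1, Panx1 and Ptgs2 also lie above every Saline value, and those of Tlr13 and Unc93b1 overlap Saline.

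The cytokines that the inflammasome cleaves did not pass in any comparison. Il1b averaged 1.79 ± 0.316 CPM in Ang II + FI, 2.09 ± 0.599 CPM in Ang II and 1.40 ± 0.495 CPM in Saline, with a log2 fold change of 0.56 ± 0.28 for Ang II over Saline (edgeR adjusted p = 0.358) and -0.16 ± 0.28 for Ang II + FI over Ang II (edgeR adjusted p = 0.898, and -0.11 ± 0.31 without library 3). Il18 had 0.301, 0.453, 2.13 and 0.272 CPM in the Ang II + FI libraries, against 0.349 to 0.663 CPM in the Ang II libraries and 0.115 to 0.515 CPM in the Saline libraries. Its value of 2.13 CPM was in Ang II + FI 3, the library with hepatocyte markers. The log2 fold change of Il18 for Ang II + FI over Ang II was 0.53 ± 0.63 over all libraries and -0.59 ± 0.50 once this one was left out.

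The same library held high values of other genes in these lists. Lbp, the lipopolysaccharide-binding protein that the liver secretes, had 31.28 CPM in Ang II + FI 3 and 6.45 to 7.12 CPM in the other Ang II + FI libraries, against 7.35 to 8.49 CPM in Ang II and 3.59 to 7.09 CPM in Saline. Il1rap, a subunit of the interleukin-1 receptor, had 26.72 CPM in Ang II + FI 3 and at most 3.76 CPM in the other Ang II + FI libraries, against at most 5.05 CPM in Ang II. Ikbke, a kinase of interferon and NF-kB signalling, had 8.92 CPM in Ang II + FI 3, against at most 1.41 CPM in Ang II. Without this library the log2 fold changes of Ang II + FI over Ang II were -0.17 ± 0.18 for Lbp, -0.13 ± 0.18 for Il1rap and -0.23 ± 0.42 for Ikbke. With it they were 0.69 ± 0.44, 1.19 ± 0.57 and 1.34 ± 0.72 for Lbp, Il1rap and Ikbke, and none passed.

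Of the other genes with the smallest p in their lists for Ang II + FI over Ang II, those below 0 were Il1r1, the interleukin-1 receptor (-0.39 ± 0.12, edgeR adjusted p = 0.411), Ripk1, a kinase of cell death and NF-kB signalling (-0.35 ± 0.13, edgeR adjusted p = 0.441), Aim2, a sensor of cytosolic DNA (-0.61 ± 0.27, edgeR adjusted p = 0.498), and Casp8 (-0.30 ± 0.20, edgeR adjusted p = 0.648). Ripk1 had 8.88 to 9.60 CPM in Ang II + FI, 9.69 to 13.92 CPM in Ang II and 7.40 to 11.3 CPM in Saline, so that Ang II + FI and Ang II did not overlap. Aim2 did not overlap between these groups either, at 0.961 to 1.32 CPM in Ang II + FI and 1.48 to 2.43 CPM in Ang II. Above 0 were Tlr6, the partner of Tlr2 (0.89 ± 0.44, edgeR adjusted p = 0.528), the IkB gene Nfkbib (0.19 ± 0.10, edgeR adjusted p = 0.568) and Lcn2 (0.85 ± 0.41, or 0.23 ± 0.29 without Ang II + FI 3). None of these passed. Without Ang II + FI 3 the values were -0.46 ± 0.12 for Il1r1, -0.30 ± 0.14 for Ripk1, -0.50 ± 0.29 for Aim2, -0.40 ± 0.20 for Casp8, 1.13 ± 0.43 for Tlr6 and 0.17 ± 0.12 for Nfkbib, and none passed there either.

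Between Ang II + FI and Saline, the genes named by the rule that did not pass included Nlrc3, a brake on innate sensing (1.37 ± 0.32, edgeR adjusted p = 0.0691), Cxcl10 (1.11 ± 0.45, edgeR adjusted p = 0.231), Tlr1 (0.74 ± 0.32, edgeR adjusted p = 0.256) and Irak4, a kinase bound by Myd88 (0.32 ± 0.19, edgeR adjusted p = 0.423). Without Ang II + FI 3 these values were 1.34 ± 0.34 for Nlrc3, 0.97 ± 0.49 for Cxcl10, 0.95 ± 0.28 for Tlr1 and 0.26 ± 0.20 for Irak4, with no call. Unc93b1 stood at 0.42 ± 0.12 in this comparison (0.42 ± 0.13 without Ang II + FI 3), Ptgs2 at 0.87 ± 0.30 (1.00 ± 0.31 without it), Panx1 at 0.81 ± 0.29 (0.80 ± 0.31) and Tlr6 at 0.69 ± 0.44 (0.92 ± 0.43). Larger shifts without this library were those of Ikbke, to 0.13 ± 0.42 (1.70 ± 0.73 with it), and Lbp, to 0.31 ± 0.18 (1.18 ± 0.44 with it). None of these 6 passed in either fit. Nlrc3 was also higher for Ang II over Saline (1.33 ± 0.32, edgeR adjusted p = 0.0541), at 2.63 to 3.51 CPM in Ang II + FI, 2.42 to 3.99 CPM in Ang II and 0.461 to 1.60 CPM in Saline. Its difference between Ang II and Saline passed once Ang II + FI 3 was left out (edgeR adjusted p = 0.0416). For the adaptors and kinases with Ang II over Saline, Ripk1 stood at 0.44 ± 0.13 (edgeR adjusted p = 0.112) and Map3k7, which encodes the kinase TAK1, at -0.18 ± 0.08 (edgeR adjusted p = 0.306).

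Levels can be set beside each other between genes only per length. Per kilobase of the principal GENCODE transcript, Nfkbia was the most abundant of the 10 in all 3 groups, at 16.4 ± 4.52 CPM per kb in Ang II + FI, 18.7 ± 4.25 in Ang II and 18.1 ± 3.31 in Saline. Nfkb1 came second, at 6.60 ± 0.981 CPM per kb in Ang II + FI, 7.87 ± 1.27 in Ang II and 7.28 ± 0.627 in Saline, below all Nfkbia values. Its range overlapped that of the next gene in Ang II + FI (Gsdmd) and in Ang II (Myd88), but not in Saline (Myd88). Myd88 and Gsdmd followed, with overlapping ranges in each group. The next were Tlr4, Casp1, Pycard and Casp4, whose order differed between the groups. In Ang II, Tlr4 stood above Pycard without overlap (3.67 ± 0.405 against 2.83 ± 0.196 CPM per kb), and in Ang II + FI and in Saline the ranges of neighbours among these 4 overlapped. Tlr2 was ninth, at 1.29 ± 0.0879 CPM per kb in Ang II + FI, 1.64 ± 0.245 in Ang II and 1.06 ± 0.198 in Saline. Nlrp3 was the lowest, at 0.0725 ± 0.0547 CPM per kb in Ang II + FI, 0.184 ± 0.1 in Ang II and 0.125 ± 0.0636 in Saline, without overlap with Tlr2. With the union of all annotated exons as the length, which is 12061 bases for Nfkb1 against 4117 in its principal transcript, Nfkb1 dropped to 2.25 ± 0.335 CPM per kb in Ang II + FI and was sixth there, while Nfkbia and Nlrp3 kept the first and last places in all groups.

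The likeness of 2 genes was measured as the mean absolute difference of their log2 CPM over the 12 libraries, each gene centred and scaled to its SD. Among the 10 genes the closest pair was Tlr2 and Tlr4 (0.461 SD), followed by Casp4 and Tlr4 (0.51 SD), while pairs of genes next to each other in the table averaged 1.06 SD. Over all tested genes that averaged 1 CPM or more, the nearest to Tlr4 were Pcolce2 (0.202 SD) and Pdzd3 (0.249 SD), and the nearest to Tlr2 were Thbs1 (0.269 SD) and Dkk3 (0.297 SD). The nearest genes were Ly86 (0.348 SD) and Myo7a (0.348 SD) for Casp4, Gm12191 (0.297 SD) for Pycard, Jak2 (0.349 SD) for Nlrp3 and Zfp788 (0.509 SD) for Casp1. Those of Gsdmd, Myd88, Nfkbia and Nfkb1 were Cd47 (0.289 SD), Enox2 (0.415 SD), Senp1 (0.352 SD) and Wsb1 (0.311 SD). Without Ang II + FI 3, Pcolce2 remained nearest to Tlr4, Thbs1 to Tlr2, Wsb1 to Nfkb1 and Senp1 to Nfkbia, and Ly86 was nearest to Casp4. For the other 5 genes the nearest one changed, to 2610301B20Rik for Nlrp3, Il3ra for Pycard, Tmco6 for Casp1, Car8 for Gsdmd and Gm12418 for Myd88. The points share their libraries, and no test was made of these distances.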

How the data were processed

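RNA sequencing counts of 12 ventricular libraries were used. The authors deposited raw counts per gene, made with HISAT and featureCounts 1.5.0-p3 on GRCm38 per the submitters' processing notes, which also name DESeq 1.8.3; the sources used here do not give the strand setting, the multi-mapping rule or the annotation release. The labels name 2 RNA extraction methods, TRIzol and an RNeasy kit. Groups were read from the treatment labels. The table also holds 13 columns with no sample name, which were not used. Overlaps and lengths came from GENCODE M21 (GRCm38), which held 55240 of 55421 gene IDs (99.7%). Besides Myd88 and Pycard, exons of Cxcl10 (Art3), Irak4 (Twf1), Nfkbib (Ccer2 and Sirt2) and Ripk1 (Serpinb6a) overlap protein-coding genes on the opposite strand. Those of Il1b, Il1rap and Ikbke overlap antisense models. The counts of these genes carry the same doubt about the strand setting.

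Genes were filtered with filterByExpr, scaled by TMM and tested with edgeR 4.0.16 (R 4.3.3) quasi-likelihood tests in 1 fit of 3 group means, with Benjamini-Hochberg adjustment over 17376 genes. The fit without Ang II + FI 3 covered 17702 genes. CPM used the whole library total. Totals of 68874852 to 80624227 counts set the counting error; intervals on fold changes are 95% and include the spread between libraries. The procedure was tested on simulated data: for Ang II against Saline it recovered 6 of 66 genes changed by 0.585 on the log2 scale, 21 of 64 changed by 1 and 50 of 65 changed by 2 among 16973 genes. For Ang II + FI against Ang II it recovered 5 of 67, 27 of 66 and 44 of 66 at the same changes, among 16983 genes. Alternatives were DESeq2 1.42.0, limma-voom (limma 3.58.1), other scalings, filters and designs, and each library left out.

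The 10 genes and the pathway and marker lists were chosen with earlier results of these data known. From each pathway list the text names, per comparison, every gene past the threshold or else the 2 with the smallest p. Further rules gave the nearest genes in pattern to each of the 10, up to 2 each.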

Additional observations from a re-analysis of the deposited data

Results flagged for a closer look

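The Nfkb1 level in Saline 4 was 26.1 CPM, far below the other 3 Saline libraries, which lay at 31.1 to 31.56 CPM. The gap to the nearest library, divided by the range of the group, was above the 95% critical value of Dixon's test. Of 30 groups of 4 libraries checked in this way, 1 stood out, and chance gives about 1 in 20.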

How the results depend on the processing

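For the 10 genes, Tlr4 with Ang II over Saline was the 1 call, and it was lost with no filter on low counts, with a replicate block and without Ang II + FI 3 and Ang II 3 together (0 of 10 each), while DESeq2 called 2. Leaving out 1 library gave 0 to 1. With Ang II + FI over Saline, DESeq2 called 1 of 10, with or without Ang II + FI 3. It called 5.52% of all genes with that library, and the share without it was not counted. Counts over all genes moved more. With Ang II over Saline they were 1075 by DESeq2, 190 with no filter, 124 with the block and 90 to 683 without 1 library. With Ang II + FI over Saline they were 828 by DESeq2, 64 with no filter, 48 with only these 2 groups, 61 with the block and 41 to 220 without 1 library. With Ang II + FI over Ang II they were 45 by DESeq2, 2 with both libraries left out and 0 to 1 without 1 library. Counts of pathway genes, checked in settings added after seeing the data, were 2 with no filter, 3 with the block, 3 with both libraries left out and 0 to 7 without 1 library for Ang II over Saline, and 5 by DESeq2, 1 with only these 2 groups and 1 to 2 without 1 library for Ang II + FI over Saline. Whether the replicate numbers pair the libraries was not settled. Same-numbered libraries had correlations of -0.0572 to 0.1045, but differently numbered ones were not correlated for reference. The block lowered the counts of calls in both comparisons with Saline.

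Signs turned for small differences. For Ang II + FI over Ang II, log2 values ran from -0.005035 to 0.43 for Casp1, -0.17 to 0.17 for Gsdmd, -0.14 to 0.067 for Tlr4 and -0.0546 to 0.0659 for Myd88 without 1 library. Gsdmd was -0.19 and Tlr4 0.0876 with both libraries left out, and Myd88 was 0.0028 by limma-voom and 0.0015 with the block. For Ang II over Saline, Casp1 ran from -0.16 to 0.12 and Nfkbia from -0.0790 to 0.13, and Casp1 was 0.11 with both left out. For Ang II + FI over Saline, Casp1 ran from -0.0234 to 0.41. Among the pathway genes, Ikbke ran from -0.23 to 1.68, Il1rap from -0.13 to 1.47, Il18 from -0.59 to 0.81 and Lbp from -0.17 to 0.90 for Ang II + FI over Ang II. In that comparison the sign also turned for Ly96 (-0.50 to 0.11), Cxcl10 (-0.47 to 0.063), Tlr1 (-0.43 to 0.061), Irak4 (-0.093 to 0.17) and Nlrc3 (-0.086 to 0.15). With both libraries left out, Ikbke was -0.0788, Il1rap -0.21, Il18 -0.45 and Lbp -0.19. The cause of these shifts was not tested. At 4 to 82 counts per library, the counting error of Nlrp3 is larger than that of the other 9 genes.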
